A study of Mus musculus with 3 samples.

Results

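The 10 genes described here encode pattern-recognition and scavenger receptors of myeloid cells. They are Clec4e, Clec4n, Clec4d, Clec7a, Olr1, Msr1, Cd36, Marco, Scarb1 and Cd68. They were taken by name, with earlier results of these data known. Every probe set that the platform annotation ties to one of these genes and to no other was read, which gave 19 probe sets for 10 of 12393 named genes. Signals were read in RAW264.7 cells, a mouse macrophage-like line established from a tumour induced by Abelson leukaemia virus, given lipopolysaccharide (LPS), a cell wall glycolipid of Gram-negative bacteria, for 0, 2 or 12 h. There was 1 array per time, 3 in all, so nothing below has a replicate check and no p-value is given. The labels name no further genotype, dose or agent, and all 3 groups are the same line. A culture kept for 2 or 12 h without LPS was not analysed here, so time in culture and LPS cannot be told apart in any difference from 0 h.

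C-type lectin receptors bind sugars or glycolipids of fungi, bacteria and dying cells through a lectin-like fold. Mincle (Clec4e), Dectin-2 (Clec4n) and MCL (Clec4d) signal through the Fc receptor gamma chain (Fcer1g), and Dectin-1 (Clec7a) through a motif in its own tail, and these routes meet at the kinase Syk and the adaptor Card9. Scavenger receptors take up modified lipoproteins, apoptotic cells and microbes: Msr1 and Marco are of class A, Cd36 and Scarb1 of class B, Cd68 of class D and Olr1 (LOX-1), which itself has a C-type lectin fold, of class E. Macrophages are the cells in which many of these receptors were first studied, and their uptake of oxidised lipoprotein makes foam cells.

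Of the 10 genes, 3 were at least 2-fold apart between any of the 3 times, and each had a time course of its own. Olr1 was high at 2 h alone, Clec4e was higher at both 2 h and 12 h with its highest signal at 2 h, and Clec4n was higher at 12 h alone. Clec4d, Clec7a, Msr1, Cd36, Scarb1 and Cd68 were less than 2-fold apart at all times, and Marco gave no signal that could be compared. The share of all genes at least 2-fold apart between any of the times was not computed, and shares for each comparison are given below. Signals are linear and scaled to a common mean per array. A floor of 34.96, the 40th percentile of all values, stands for the weakest signal that was compared: a gene under it on 1 of the arrays has only a bound ("at least"), and a gene under it on both has no fold. Of the 19 probe sets, 17 were above the floor on all 3 arrays. Fold differences are taken only within a probe set, since different probe sets differ in brightness for the same amount of RNA. The arrays read RNA of whole cultures, so a gene read in fewer cells and less of its RNA per cell cannot be told apart.

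**Figure D1:**
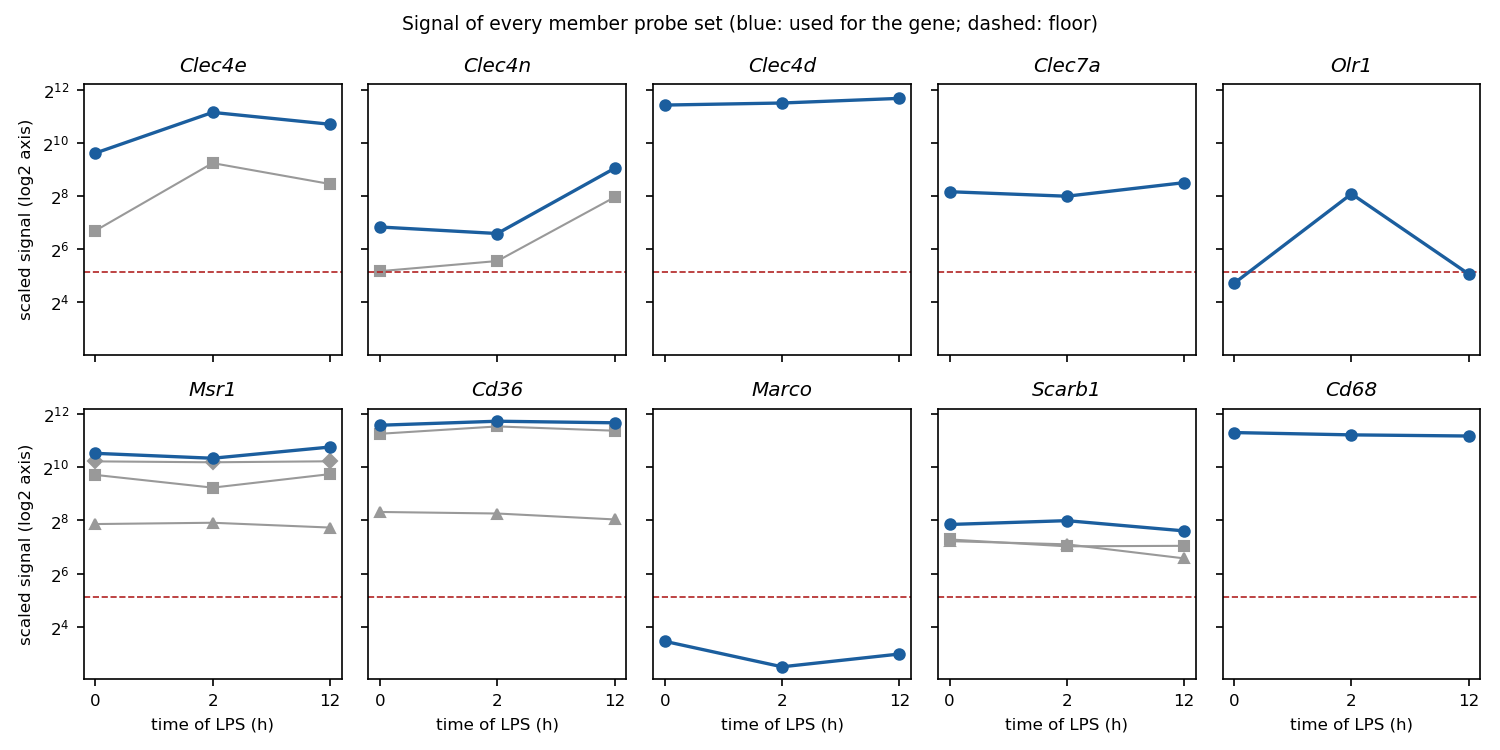
Scaled signal (log2 axis) of every probe set of the 10 genes at 0, 2 and 12 h of LPS, 1 array per time; blue is the probe set used for the gene, grey the others, and the dashed line the floor of 34.96. Olr1 is above the floor only at 2 h, both Clec4e probe sets peak at 2 h, both Clec4n probe sets are highest at 12 h, and Marco is under the floor throughout.

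The only error that these arrays hold is the spread between probe sets of the same gene. Pooled over genes that had more than 1 probe set over this floor, the log2 difference had an SD between probe sets of 0.32 from 0 h to 2 h, 0.34 from 0 h to 12 h and 0.31 from 2 h to 12 h, equal to 1.25-fold, 1.27-fold and 1.24-fold. It does not contain the error between cultures, which was not measured. As checks of the labels, Tnf had signals of 184, 3346 and 1343 and Il1b of 42.1, 1968 and 2609 at 0, 2 and 12 h, whereas Actb, which encodes a cytoskeletal actin, stayed between 5161 and 5904. All 11 macrophage markers examined were above the floor on every array. At 12 h 4 of them (Adgre1, Itgam, Fcgr1 and Mpeg1) were at least 2-fold higher than at 0 h, against 3.01% of all measured genes. Of all 12393 genes, 8115, 7811 and 8171 were above the floor at 0, 2 and 12 h, and the share under it on all 3 arrays was not computed. Of 40 markers of 8 other cell types, 25 were under the floor on all 3 arrays. The other 15 were above it on at least 1 array, 6 of them on all 3, with the highest signal at 241 (Itgax).

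At 2 h of LPS, 2 of the 9 measured members were at least 2-fold higher than at 0 h, against 2.09% of all 8422 measured genes. None was at least 2-fold lower, against 1.69% of all genes. The median log2 difference of the members was 0.08, beside -0.10 over all genes. The other 7 measured members differed from 0 h by less than 1 SD between probe sets. At 12 h, 2 of 8 measured members were at least 2-fold higher than at 0 h, against 3.01% of 8629 genes, and none was lower, against 2.4%; the members' median was 0.24, beside -0.05 over all genes. From 2 h to 12 h, 1 of 9 members was higher, against 2.65% of 8467 genes, and 1 was lower, against 1.98%; the medians were -0.04 and 0.05. The first pair of comparisons shares the array at 0 h, and the third uses the same 2 h and 12 h arrays again, so the comparisons are not independent of each other. The members were chosen with earlier results of these data known, so the shares of all genes beside them are no test of the set.

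**Figure D2:**
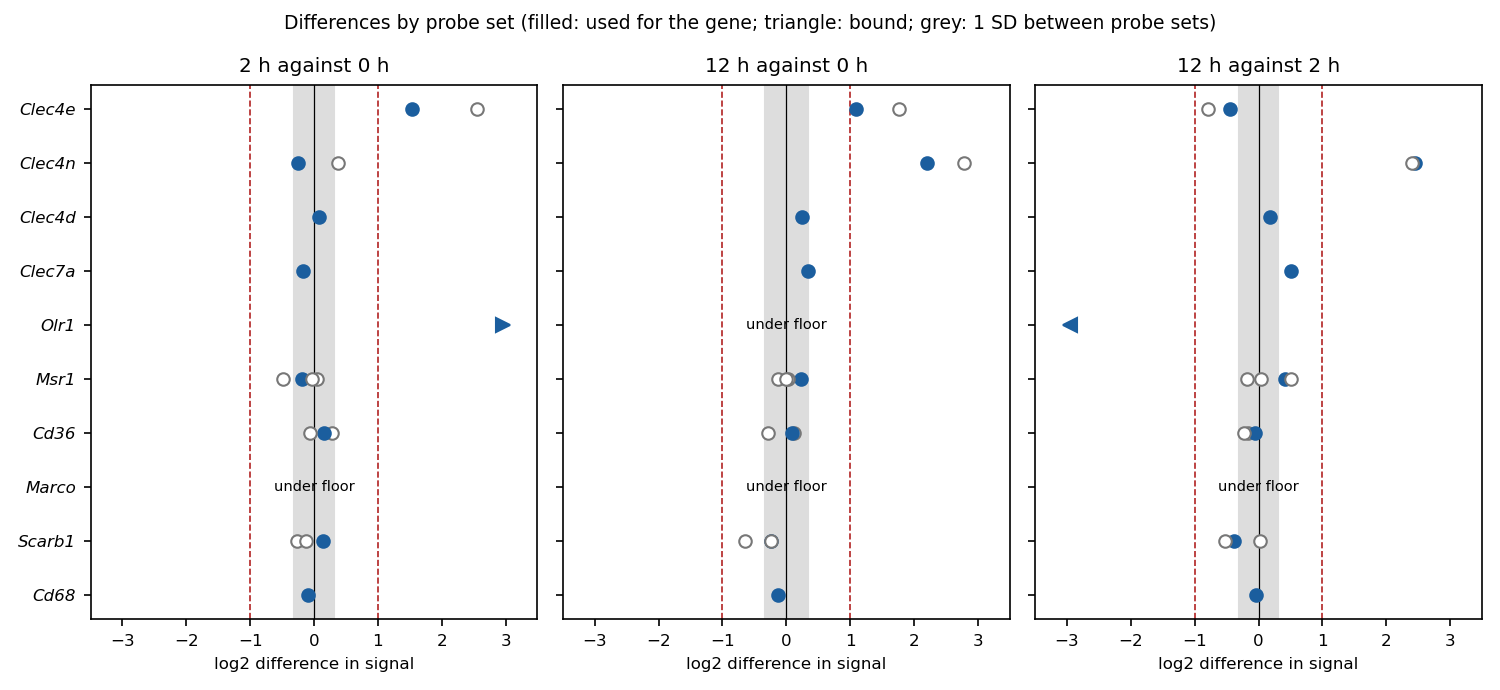
Log2 difference in signal of each probe set (x axis) for each gene (y axis) in the 3 comparisons; filled blue points are the probe sets used for the gene, open points the others, triangles bounds, the grey band 1 SD between probe sets and the dashed lines a 2-fold difference. Clec4e and Olr1 lie beyond 2-fold at 2 h, Clec4e and Clec4n at 12 h, Clec4n and Olr1 in opposite directions from 2 h to 12 h, and the remaining genes lie inside the dashed lines.

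Clec4e encodes Mincle, which recognises the mycobacterial cord factor and a protein released by dying cells. Its brighter probe set (1420330_at) had a signal of 787 at 0 h, 2277 at 2 h and 1671 at 12 h. The second (1420331_at) had 104, 606 and 351. Both probe sets were lowest at 0 h and highest at 2 h. By the brighter probe set the gene was 2.90-fold higher at 2 h and 2.12-fold higher at 12 h than at 0 h, or 1.53 and 1.09 on the log2 scale. By the second these differences were larger, 5.85-fold and 3.39-fold. The probe sets therefore gave the same order of the times but differed in size by 1.01 at 2 h and 0.67 at 12 h on the log2 scale, more than the SD between probe sets. Between 2 h and 12 h the signal was 1.36-fold lower by the brighter and 1.73-fold lower by the second, both under 2-fold. Clec4e had the 89th highest difference of 8422 genes at 2 h and the 227th of 8629 at 12 h.

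Clec4n encodes Dectin-2, a receptor for fungal and bacterial mannans. Its brighter probe set (1419627_s_at) had a signal of 114 at 0 h, 96.1 at 2 h and 528 at 12 h. The second (1425951_a_at) had 36, 46.9 and 248. Each was close between 0 h and 2 h and highest at 12 h. At 2 h the difference from 0 h was -0.25 on the log2 scale by the brighter probe set and 0.38 by the second, so that even its sign was not settled. At 12 h the gene was 4.63-fold higher than at 0 h by the brighter probe set and 6.90-fold by the second. Against 2 h it was 5.49-fold and 5.29-fold higher at 12 h, which is the 17th highest difference of 8467 genes for the brighter probe set. Both probe sets carry a suffix that marks probes shared between transcripts, so Clec4n has no value once such probe sets are left out.

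Olr1 encodes LOX-1, a receptor for oxidised low-density lipoprotein that is best known from endothelium and foam cells. Its only probe set (1419534_at) had a signal of 26.3 at 0 h, 271 at 2 h and 33.4 at 12 h. The signals at 0 h and 12 h were under the floor and only that at 2 h was above it. Olr1 was therefore at least 7.75-fold higher at 2 h than at 0 h and at least 7.75-fold lower at 12 h than at 2 h; the bounds are equal because the floor stands in for both low signals. There is no fold for 12 h against 0 h. The size of the bound follows the floor: on the log2 scale it was 2.95 at 2 h as reported, 1.68 when the 60th percentile of all values served as the floor and 3.37 for the 20th. No second probe set reads this gene, so the spread between probe sets was not measured for it.

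**Figure D3:**
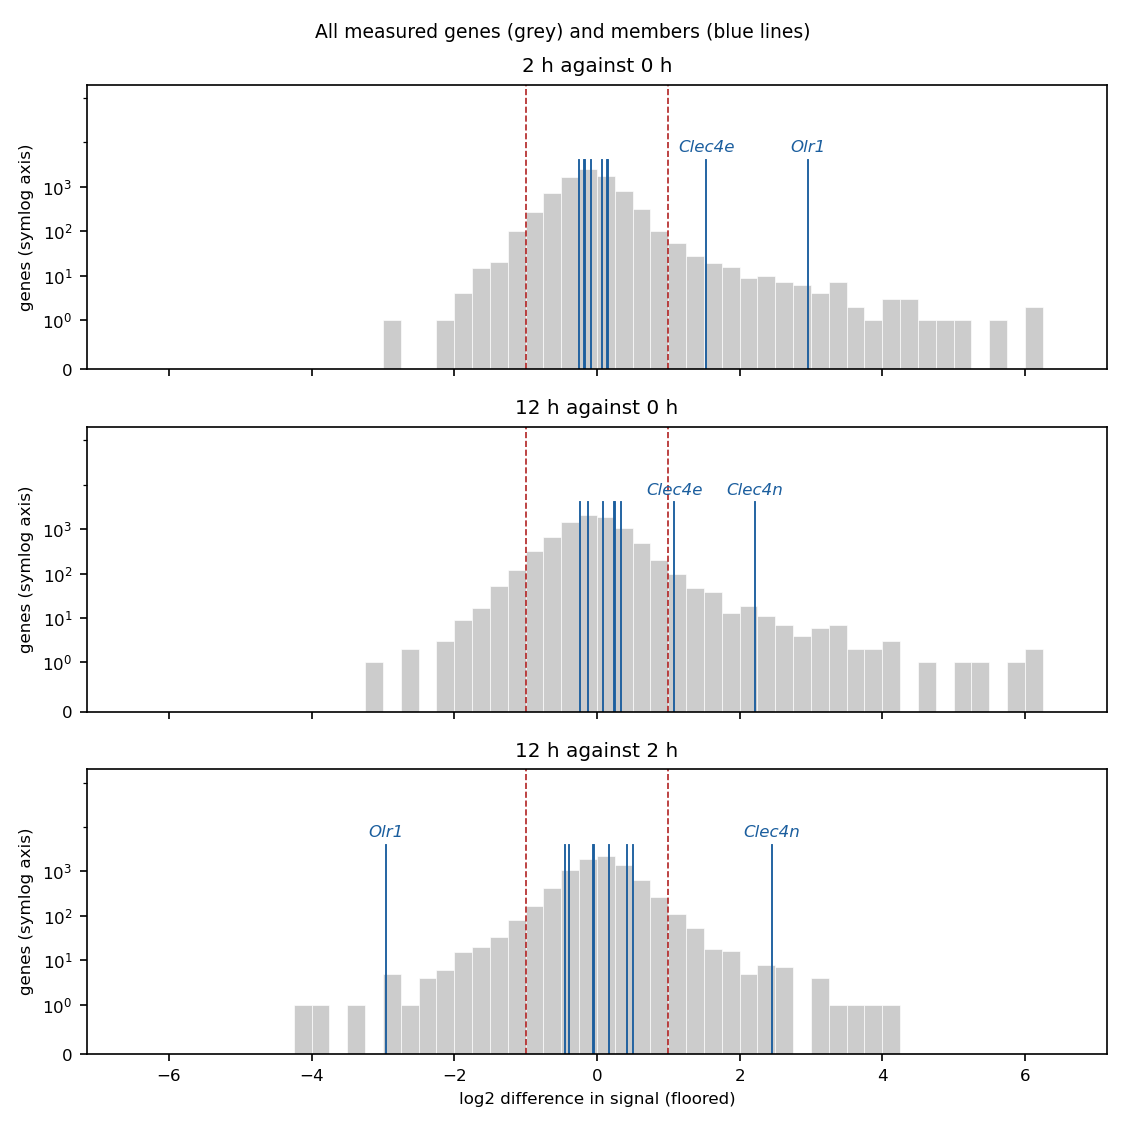
Number of measured genes (grey bars, symmetric log axis) by log2 difference in signal for the 3 comparisons, with the difference of each measured member as a blue line of arbitrary height and dashed lines at 2-fold. Most member lines lie in the centre of the distribution. Beyond the dashed lines are Clec4e and Olr1 at 2 h against 0 h and Clec4e and Clec4n at 12 h against 0 h. At 12 h against 2 h they are Clec4n and Olr1. Olr1 has no line at 12 h against 0 h.

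Proximal promoters are shown for Olr1 and Clec4e, which were higher at 2 h, and for Cd68, whose signal stayed within 1 SD between probe sets. Each is the 250 bases before the RefSeq start in GRCm38.p6, on the minus strand of the chromosome and written in the direction of the gene: chr6:129507166-129507415 for Olr1, chr6:123289872-123290121 for Clec4e and chr11:69666171-69666420 for Cd68. Capitals mark the letters of the motifs found: TGANTCA (AP-1) in Olr1, TTGCNNAA (C/EBP, on the opposite strand) and TATAAA, the letters of a core promoter box, in Clec4e, and TGANTCA at 2 places and TTGCNNAA in Cd68.
Olr1: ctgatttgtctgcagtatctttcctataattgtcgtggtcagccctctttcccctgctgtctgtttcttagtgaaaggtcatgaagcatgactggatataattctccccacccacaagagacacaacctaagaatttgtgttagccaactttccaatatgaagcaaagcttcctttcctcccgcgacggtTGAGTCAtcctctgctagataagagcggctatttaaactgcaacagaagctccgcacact
Clec4e: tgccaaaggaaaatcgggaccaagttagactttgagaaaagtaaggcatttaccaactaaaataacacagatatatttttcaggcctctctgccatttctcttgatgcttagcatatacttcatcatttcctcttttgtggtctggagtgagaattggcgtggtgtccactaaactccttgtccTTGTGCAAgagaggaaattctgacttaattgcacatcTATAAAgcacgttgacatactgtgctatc
Cd68: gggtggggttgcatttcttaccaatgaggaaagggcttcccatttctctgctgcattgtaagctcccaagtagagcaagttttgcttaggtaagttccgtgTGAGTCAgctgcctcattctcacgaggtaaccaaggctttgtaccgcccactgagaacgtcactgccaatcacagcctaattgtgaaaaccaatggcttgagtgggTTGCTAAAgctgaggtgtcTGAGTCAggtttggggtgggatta

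The RefSeq promoter table held 7 of the 10 genes, Clec7a with 2 starts and so 8 windows; Clec4n, Msr1 and Scarb1 were not matched. Windows of 300 bases, from 250 before to 50 after the start, were searched on both strands. TGANTCA was present in 2 of the 7 genes, Olr1 at 60 bases before the start and Cd68 at 149 and 24 bases before it, and in 7.81% of all 32851 promoters. TTGCNNAA was present in Clec4e at 66 bases and Cd68 at 43 bases before the start, and in 10.8% of all promoters. TATAAA was present in Clec4e at 29 bases before the start and in Clec7a, on the opposite strand at 43 bases after it, and in 13.6% of all promoters. The kappaB consensus, GAGGAAGT (PU.1), CACGTG (E-box) and TGACNNNGC (NRF2) were in none of these 8 windows, and in 8.46%, 3.2%, 7.15% and 12.4% of all promoters. The interferon response element was in Clec4d alone, starting at position 1, and in 3.44% of all promoters. None of the motifs searched overlapped another in the printed bases. Cd68 held the letters found in Olr1 and one of the motifs found in Clec4e, whereas Clec4d, Clec7a, Cd36 and Marco held neither TGANTCA nor TTGCNNAA. Whether any of these letters act on the signal of a gene was not tested.

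Clec4d encodes MCL, which pairs with Mincle at the cell surface. Its only probe set (1420804_s_at), which carries a suffix for shared probes, had signals of 2758, 2910 and 3284 at 0, 2 and 12 h. The largest difference, 12 h against 0 h, was 1.19-fold, within 1 SD between probe sets. Clec7a, the beta-glucan receptor Dectin-1, had signals of 287, 255 and 363 (1420699_at). It was 1.27-fold higher at 12 h than at 0 h and 1.42-fold higher than at 2 h, at 1.01 and 1.64 times the SD between probe sets.

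Of the 10 genes, 5 lie on mouse chromosome 6, in a pair of lectin clusters. In the gene order of the RefSeq table, Clec4n, Clec4d and Clec4e are direct neighbours at one end of a run of 9 lectin genes that starts with Clec4a1, and Clec7a and Olr1 are direct neighbours at one end of a run of 7 that starts with Clec12a. The ends of these runs were set after their order was seen. The neighbours did not share a time course: Clec4d, between Clec4n and Clec4e, was within 1.19-fold at all times, and Clec7a, beside Olr1, within 1.42-fold. Clec4d, Clec7a and Olr1 were read by 1 probe set each, and that of Clec4d carries a suffix for shared probes. Among the other genes of the runs that had a probe set of their own, Clec4a2 (DCIR), an inhibitory lectin, had signals of 231, 228 and 372, while Clec4b1 and Clec1b were under the floor on all 3 arrays.

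**Figure D4:**
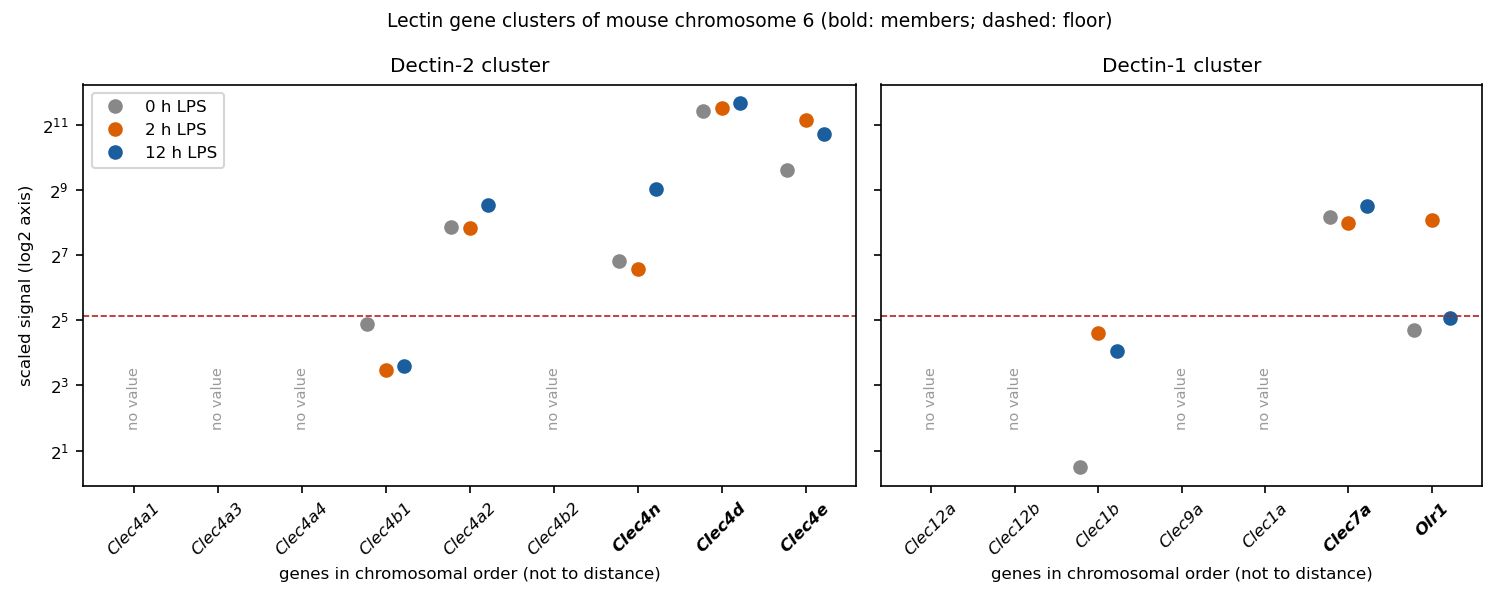
Scaled signal (log2 axis) at 0 h (grey), 2 h (orange) and 12 h (blue) of LPS for the genes of the 2 lectin runs of chromosome 6 in their order along it, with members in bold and the floor dashed; "no value" marks genes without a probe set of their own. Clec4n and Clec4e are spread between times, while Clec4d, which lies between them, is not.

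Among scavenger receptors of class A, Msr1 (SR-A) takes up modified lipoproteins and bacteria and was read by 4 probe sets. The brightest (1422062_at) had signals of 1480 at 0 h, 1301 at 2 h and 1744 at 12 h, at most 1.34-fold apart. The other 3 ranged from 604 to 859, 213 to 241 and 1171 to 1202. At 2 h the log2 difference from 0 h lay between -0.48 and 0.05 over the 4 probe sets, and at 12 h between -0.13 and 0.24. No probe set reached 2-fold in any comparison, and the probe sets did not agree on a sign. Marco, which binds bacteria and particles, had signals of 10.9, 5.60 and 7.81 by its only probe set (1449498_at), all under the floor. Whether that probe set detects Marco was not tested, so the gene has no direction here.

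Among scavenger receptors of class B, Cd36 takes up long-chain fatty acids and oxidised lipoprotein. Its brightest probe set (1450883_a_at) had signals of 3083, 3424 and 3285, the second 2466, 2988 and 2671, and the third 320, 307 and 263. The brighter pair were highest at 2 h and lowest at 0 h, and the third was highest at 0 h. All differences were at most 1.22-fold and within 1 SD between probe sets. Scarb1 (SR-BI), the receptor for high-density lipoprotein, had signals of 231, 255 and 195 by its brightest probe set (1416050_a_at). At 12 h its 3 probe sets were all lower than at 0 h, by 1.18-fold, 1.18-fold and 1.57-fold. At 2 h the brightest was 1.11-fold higher and the others 1.20-fold and 1.09-fold lower. None reached 2-fold. The brightest carries the suffix _a_at and the others _x_at, which were treated alike here as marks of shared probes.

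Cd68 (macrosialin), a heavily glycosylated protein of endosomes and lysosomes that serves as a macrophage marker, had signals of 2546, 2397 and 2326 (1449164_at). The times were within 1.09-fold of each other. Lamp1 and Lamp2, of the same protein family, had signals of 1724, 1668 and 1670 and of 639, 653 and 598.

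Beside the members, 5 lists of related genes were read. Of 39 other C-type lectins, 28 had a probe set of their own and 15 of these were under the floor on all arrays, among them Mrc1, the mannose receptor. The share of all genes under it on all arrays was not computed. Of all measured genes, 2.09% were higher and 1.69% lower at 2 h, and 3.01% and 2.4% at 12 h. Beside these shares, none of the 10 lectins measured at 2 h and none of the 11 measured at 12 h was at least 2-fold from 0 h. Their median log2 differences were 0.07 and 0.04. A count of none in a list of this size does not set it apart from all genes. The counts of lectins follow the floor. For one at the 20th percentile, 2 were higher and 3 lower at 2 h, beside 3.24% and 4.72% of all genes. At 12 h 4 were lower, beside 4.5% of all genes, among them Clec10a, a galactose-type lectin (65.4, 50.4 and 25.9). Clec5a (MDL-1), which signals through Tyrobp, had signals of 726, 891 and 920. Of 24 other scavenger receptors and related genes, 18 had a probe set and 12 were measured at 2 h, none at least 2-fold apart, or 1 (Cxcl16) with median scaling. At 12 h, 1 of 13 was, namely Cd5l, a secreted protein of the scavenger receptor cysteine-rich family, at least 2.12-fold lower than at 0 h (signals of 74, 65 and 31.9), or -0.73 on the log2 scale with 32 added to each signal. The medians were -0.09 and -0.05, and the shares of all genes are those given above for the lectins. Between 2 h and 12 h, Lgals3bp, another protein of that family, was 2.45-fold higher (528 and 1292).

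Among genes that carry the lectin receptor signal, 2 of the 19 measured were called higher at 2 h, against 2.09% of all genes. At 12 h 4 of the 19 were higher, against 3.01%, at the same 2-fold limit. None was lower at either time, against 1.69% and 2.4% of all genes. The medians were 0.18 and 0.21, beside -0.10 and -0.05 over all genes. Fcer1g, the signalling chain of Mincle, MCL and Dectin-2, had signals of 989, 1338 and 2036 and was 2.06-fold higher at 12 h than at 0 h. Under quantile normalization its log2 difference was 0.98, just under 2-fold. Syk had signals of 87, 94.7 and 203 and was 2.34-fold higher at 12 h, or 0.98 on the log2 scale with 32 added to each signal. Cybb, the catalytic subunit of the phagocyte NADPH oxidase, had signals of 615, 983 and 1666 and was 2.71-fold higher at 12 h. Src, a tyrosine kinase under the floor at 0 h, was at least 2.30-fold higher at 2 h and at least 2.87-fold at 12 h, or 0.94 and 0.68 on the log2 scale once suffixed probe sets were left out; the bound at 12 h was 0.24 for a floor at the 60th percentile. The transcription factor gene Nfatc2 was 2.01-fold higher at 2 h (36.4 and 73.3), or 0.62 on the log2 scale when 32 was added to each signal instead of setting a floor. Card9, Malt1 and Lyn were not analysed here. At 12 h Clec4n and Fcer1g, the receptor and its signalling chain, were thus both at least 2-fold higher than at 0 h, while Tyrobp, the adaptor of Clec5a, had signals of 2357, 2020 and 1787.

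Among genes that work with Cd36 in lipid uptake or handle the scavenged lipid, none of 18 was at least 2-fold apart at 2 h. Of all genes, 2.09% were higher and 1.69% lower at that time. The medians of the list at 2 h and 12 h were 0.06 and 0.38. At 12 h 1 of the 18 was higher and none lower, against 3.01% and 2.4% of all genes. That gene was Abca1, the cholesterol exporter, 2.25-fold higher at 12 h by its brightest probe set (63.2 and 142) but at 0.28 on the log2 scale by the median over its 3 probe sets. From 2 h to 12 h, the lipid droplet protein gene Plin2 was 2.42-fold higher (803 and 1944), and the tetraspanin gene Cd151 2.21-fold, or 0.55 on the log2 scale by the median over its 6 probe sets. Pparg, which encodes a nuclear receptor that drives Cd36 in macrophages, had signals of 4.30, 2.00 and 3.41, all under the floor.

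Transcription factors known to act on genes of this kind were read last, in a list also chosen with earlier results of these data known. At 2 h, 4 of the 16 measured were higher and 2 lower by 2-fold or more, against 2.09% and 1.69% of all genes, and at 12 h 3 were higher and 1 lower, against 3.01% and 2.4%, with medians of 0.06 and -0.10. The NF-kB subunit gene Rel was 7.72-fold higher at 2 h (35.3 and 272) and 2.48-fold at 12 h (87.3). Its signal at 0 h lay at the floor, and for a floor at the 60th percentile these differences were 1.69 and 0.05 on the log2 scale, in place of 2.95 and 1.31. Cebpd, of the C/EBP family, had signals of 121, 700 and 370, being 5.78-fold higher at 2 h and 3.05-fold at 12 h. Its relative Cebpa was 3.33-fold lower at 12 h (307, 313 and 92.3), and Cebpb, which is known to drive Clec4e, had signals of 488, 775 and 795, under 2-fold. Of the AP-1 genes at 2 h, Junb was 4.26-fold higher (230 and 979), while Jun was 2.84-fold lower and Fos 3.20-fold lower. The MiT family factor gene Tfec was 3.18-fold higher at 2 h and 2.07-fold at 12 h, the latter 0.93 on the log2 scale with the floor at the 60th percentile. Spi1, which encodes PU.1, had signals of 631, 1255 and 965, just under 2-fold at 2 h and past it with median scaling.

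**Figure D5:**
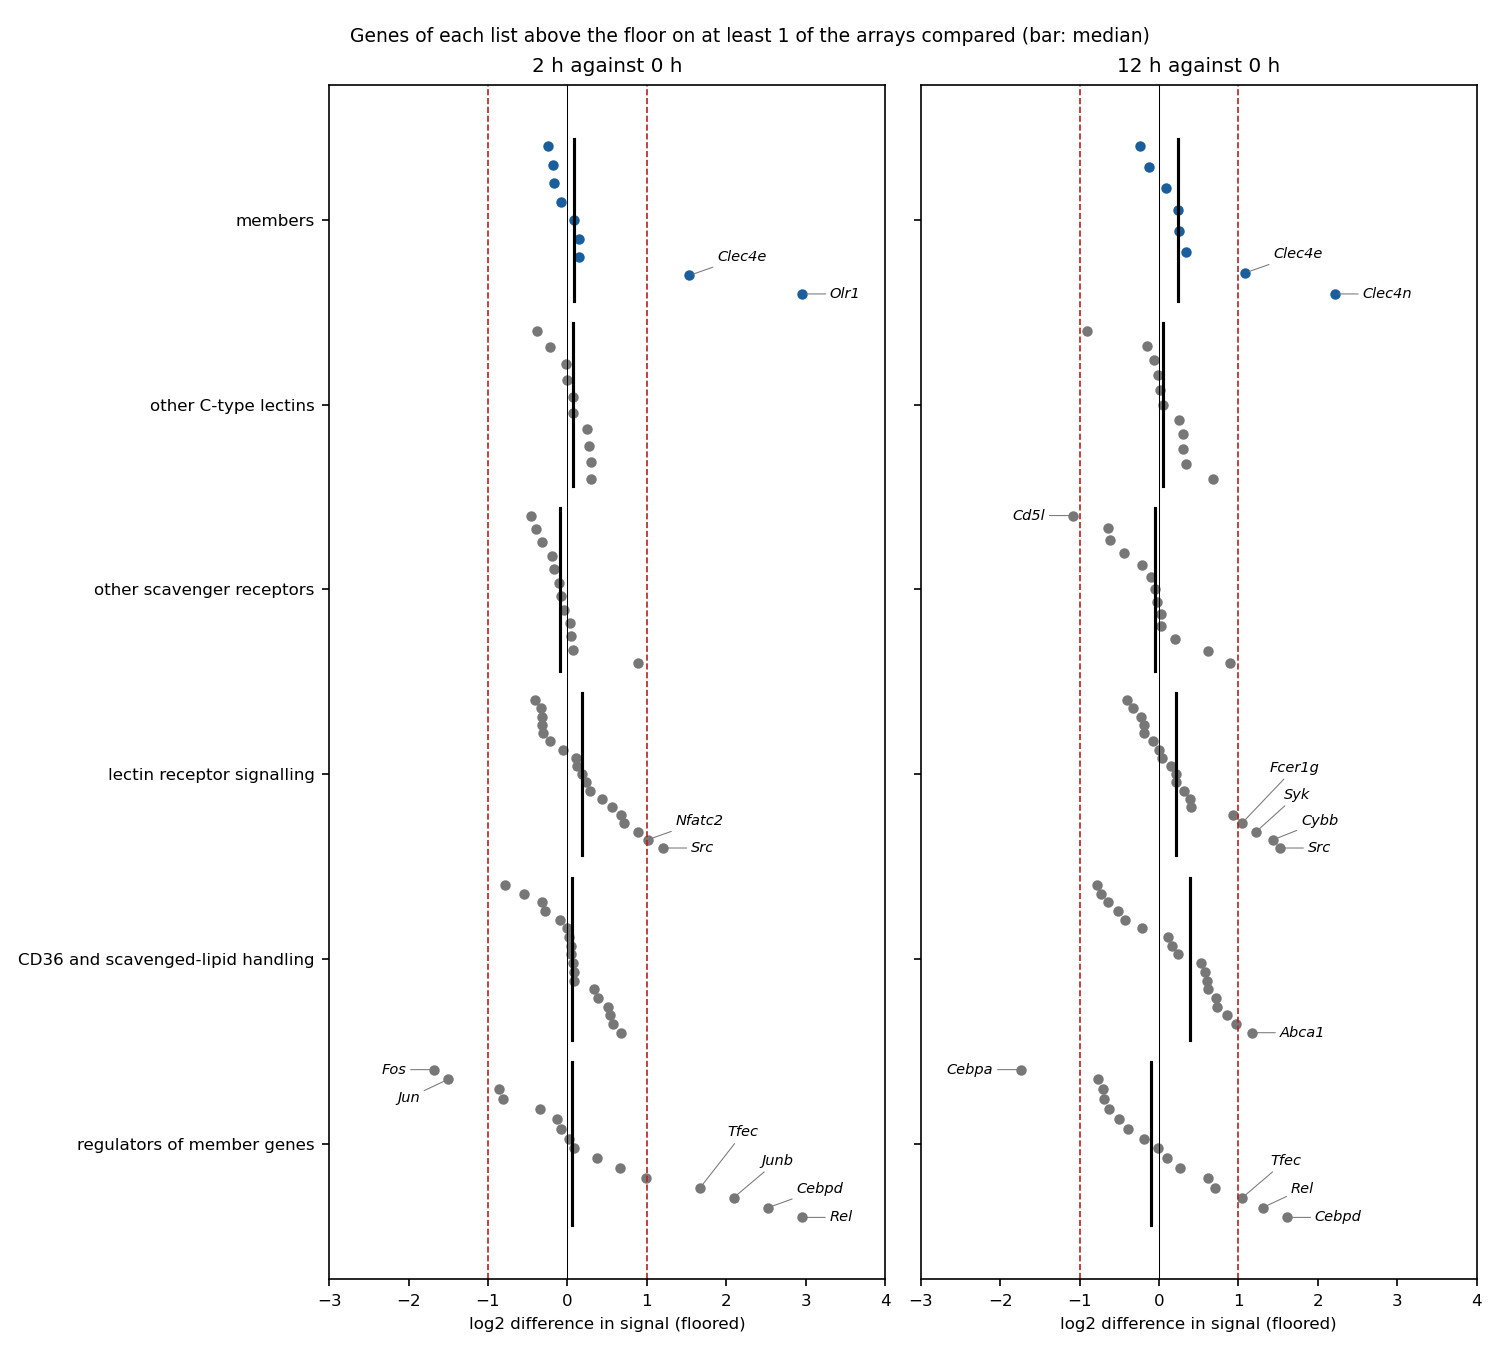
Log2 difference in signal from 0 h at 2 h (left) and 12 h (right) for the members (blue) and 5 lists of related genes (grey), each point a gene above the floor on at least 1 of the arrays compared, bars the medians and dashed lines 2-fold; genes beyond 2-fold are named. Olr1, Clec4e and Clec4n are named among the members. Of the other C-type lectins, 10 were measured at 2 h and 11 at 12 h, and none is beyond 2-fold. The text gives the shares of all genes beside these counts.

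Markers of cell types that also carry these receptors were read beside the results at 12 h. Of 4 dendritic cell markers measured at 12 h against 0 h, 1 was at least 2-fold higher, against 3.01% of all genes. It was Itgax (CD11c), with signals of 69.7, 87.8 and 241. Zbtb46 was above the floor on all arrays (40.2, 35.7 and 40.9), and Xcr1 and Cd209a were above it at 12 h alone. Flt3 and Ccr7 were under the floor on all arrays. None of 4 measured neutrophil markers was at least 2-fold higher at 12 h. Mpo was above the floor on all arrays (66.2, 49.1 and 59.2). Elane was above it at 0 h and 12 h (37.1 and 42.3), and S100a8 and Ltf at 12 h alone. S100a9 and Camp were under the floor on all arrays. Summed over the 6 probe sets of each list, many of them under the floor, the signals at 0, 2 and 12 h were 191, 208 and 404 for dendritic cells and 148, 116 and 222 for neutrophils. These sums add probe sets of different brightness and background, so no difference is read from them. All 3 groups are the same line, RAW264.7, so these markers are read here as genes of that line. Whether their signals go with the differences of Clec4n and Clec4e was not tested.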

How the data were processed

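The deposited data of each of the 3 arrays are linear intensity values of 22690 probe sets, 64 of them controls. Per the labels' protocols, targets were made from total RNA by a modified Affymetrix procedure; no source used here names the scanner software or the normalization. The 2% trimmed mean of the deposited values was 150.05 on each array, which hides any shift in total mRNA. The platform annotation gave 1 gene for 20393 probe sets, several for 691 and did not list 1606; 20364 of the first matched the RefSeq gene table of GRCm38.p6, used for names, gene order and promoters. Arrays were brought to the same 2% trimmed mean without controls, values under the 40th percentile (34.96) were set to it, and log2 was taken. A gene's value came from its probe set with the highest mean log2 signal. A gene was called higher or lower at 2-fold. The number of arrays limits the precision. The members and lists were chosen with earlier results of these data known. All members were named, as were up to 4 genes of each other list at least 2-fold from 0 h, by size, every gene of a count of 5 or fewer, and Tnf, Il1b and Actb as checks; Gapdh, also planned, had no probe set of its own outside the controls. Other genes were chosen after their values were seen. Alternatives were other scalings, floors, a pseudocount of 32, the median over probe sets, probe sets without suffix, and folds of 1.5 and 3. The counting was tested on simulated data. Python 3.11.15, numpy 2.4.6, pandas 2.3.3, scipy 1.17.1 and matplotlib 3.10.9 were used.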

Additional observations from a re-analysis of the deposited data

How the results depend on the processing

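Of 60 counts of members under the alternatives, 56 stayed within 1.5 times the count reported. With a fold of 3, 1 member was higher at 2 h (Olr1) and 1 at 12 h (Clec4n), in place of 2 each. With suffixed probe sets left out, Clec4n, Clec4d and Scarb1 had no value, so 1 member was higher at 12 h against 0 h (Clec4e) and 0 were higher at 12 h against 2 h. Of 199 log2 differences of members, 9 shifted beyond the SD between probe sets, and none of those at least 2-fold changed sign. Many of the 199 could not shift, so this tally is no measure of robustness. The 8 members above the floor on all arrays kept their values under both other floors. The median over probe sets cannot alter a gene with 1 probe set, and leaving out the rescaling moved signals by at most 0.16%. For Clec4e at 2 h the highest value was 2.04 (the median over its probe sets), for Clec4n at 12 h the range was 1.94 to 2.50, and for Olr1 at 2 h 1.68 to 3.37. The direction of Scarb1 at 2 h was not kept: it was 0.14 as reported and -0.18 by the median over its probe sets. Clec4n at 2 h went from -0.25 to 0.07 by that median, and Cd68 at 2 h from -0.09 to 0.06 with median scaling. Median scaling moved the median of all genes at 2 h from -0.10 to 0.03, and the split of all genes at least 2-fold higher and lower from 176 and 142 to 225 and 73. Of 626 values of the other lists and their genes, 45 moved. With the floor at the 60th percentile, no signalling gene was higher at 2 h, no lipid-handling gene at 12 h, and 1 regulator was higher at 12 h (Cebpd); with 32 added to each signal, the counts were 0, 1 (Fabp4) and 1 (Cebpd). No paired analysis was possible because each time has 1 array, and for the same reason no array could be left out.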

Other observations

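Several genes that handle scavenged lipid lay short of 2-fold at 12 h and differed in direction; those given here were picked after their values were seen. Npc2, which carries cholesterol out of lysosomes, had signals of 1961, 1944 and 3836 at 0, 2 and 12 h, or a log2 difference of 0.97 at 12 h, which passed 2-fold with median scaling, without suffixed probe sets, and by the median of the probe sets. Its partner Npc1 had 51, 47.9 and 77.9, or 0.61. Lipa, the lysosomal acid lipase gene, had 1649, 1708 and 960, or -0.78. The receptor gene Lrp1, which is in the scavenger receptor list too, had 710, 567 and 456, or -0.64. Among proteins that sit with Cd36 in the membrane, the tetraspanin gene Cd9 had 1042, 1508 and 1504, or 0.53, and Cd81 had 306, 309 and 185, or -0.73.

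Cxcl16, a chemokine that is also a scavenger receptor for oxidised lipoprotein, had signals of 557, 1027 and 546, a log2 difference of 0.88 at 2 h and -0.03 at 12 h. Bcl10, the signalling partner of Card9, had 322, 599 and 322, or 0.89 and 0.00. Both were highest at 2 h and near their 0 h signal at 12 h. Neither reached 2-fold at 2 h as reported, but both did with median scaling.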
